A study of Rattus norvegicus with 24 samples.

Results

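A set of 45 genes was read from RNA sequencing of rat dorsal root ganglia, of 24613 genes counted and 13482 with a mean of at least 1 CPM (the count divided by the sample's total count, times 1000000). The members were chosen by their measured values: in each of them all 4 rats with complete spinal cord transection lay above, or all 4 lay below, all 20 other rats. Their mean in log2(CPM + 0.5) also had to differ by at least 0.6 from the mean of each of the other 4 groups. The transected rats were above the others in 39 members (0.289% of the genes with a mean of 1 CPM) and below them in 6 (0.0445%). Every difference between the transected rats and another group was used by this choice, so these differences are given as values without a test.

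Dorsal root ganglia hold the cell bodies of the primary sensory neurons, each with an axon to the periphery and a central axon to the spinal cord, together with satellite glia, Schwann cells, vessels and resident immune cells. An injury of the cord at the T2 level lies far above the ganglia collected here, whose peripheral axons it leaves intact. Adult female Sprague Dawley rats were studied, all housed in small cages that limited movement. Ganglia of T11 to L4 from both sides were pooled within each rat. The 5 groups were 4 uninjured rats (No SCI, labelled 11.5 weeks), 6 rats at 11.5 weeks after a T2 contusion of 25 g-cm (CONT SCI), 5 contused rats that swam (CONT SCI + SWIM), 5 contused rats that walked in shallow water (CONT SCI + SWW) and 4 rats at 8.5 weeks after complete T2 transection (TX SCI). Both exercise groups trained on 5 days a week for 10 weeks and were sampled at 13.5 weeks. Injury type and time therefore cannot be told apart in TX SCI, nor can exercise and time in the exercised groups.

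Total counts per sample ran from 29191327 to 33841979 in No SCI, from 30462475 to 38370849 in CONT SCI and from 16086670 to 29709101 in CONT SCI + SWIM. They ran from 20063150 to 29995120 in CONT SCI + SWW and from 20040086 to 38730307 in TX SCI. The ranges of TX SCI and of each other group overlapped, whereas every CONT SCI rat had a higher total count than every exercised rat. The files do not pair the Ensembl identifiers with gene names. The annotation table at hand (GRCr8, 47357 genes) holds Ensembl identifiers for 0 of its genes, so none of the 24613 could be looked up, which says nothing on whether the genes are in it. Members are therefore given by rank, with rank 1 for the largest distance from the nearest other group mean. Markers of sensory neurons, glia and other cell types, gene function, position and sequence were not analysed here.

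For ENSRNOG00000011483, rank 1, the 4 TX SCI rats measured 23.3, 63.5, 31.2 and 89.7 CPM. The No SCI rats measured 1.28, 1.18, 3.37 and 0.891 CPM, and the 6 CONT SCI rats ran from 0.393 to 2.11 CPM with a median of 0.842. In CONT SCI + SWIM the values were 9.78, 9.95, 4.13, 1.25 and 11.3 CPM. The shallow water walkers measured 1.46, 3.40, 3.67, 17.4 and 12.7 CPM. All TX SCI rats exceeded the highest exercised rat, and 4 of 5 rats in each exercise group exceeded every CONT SCI rat. CONT SCI + SWIM replicate 4 and CONT SCI + SWW replicate 1 lay within the range of the unexercised rats. Mean log2(CPM + 0.5) in TX SCI was 2.85 above the nearest group, CONT SCI + SWIM, and 5.08 above CONT SCI. In bulk tissue, fewer or more cells of a type and a different amount of RNA per cell cannot be told apart.

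ENSRNOG00000011557, rank 2, had a similar layout, at a lower level than rank 1 in every TX SCI rat and every swimming rat but not in CONT SCI. Its TX SCI values were 12.5, 37.3, 21.1 and 44.7 CPM, against 1.11, 1.59, 2.95 and 0.651 in No SCI and 0.419 to 1.92 (median 0.850) in CONT SCI. The swimming rats measured 5.79, 5.41, 2.04, 0.909 and 7.90 CPM, and the walking rats 1.56, 2.17, 2.57, 11.5 and 7.46 CPM. The highest walking rat, replicate 4, came closest to the lowest TX SCI rat, and the groups did not overlap. The TX SCI mean was 2.59 above the nearest group mean on the log2 scale.

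**Figure D1:**
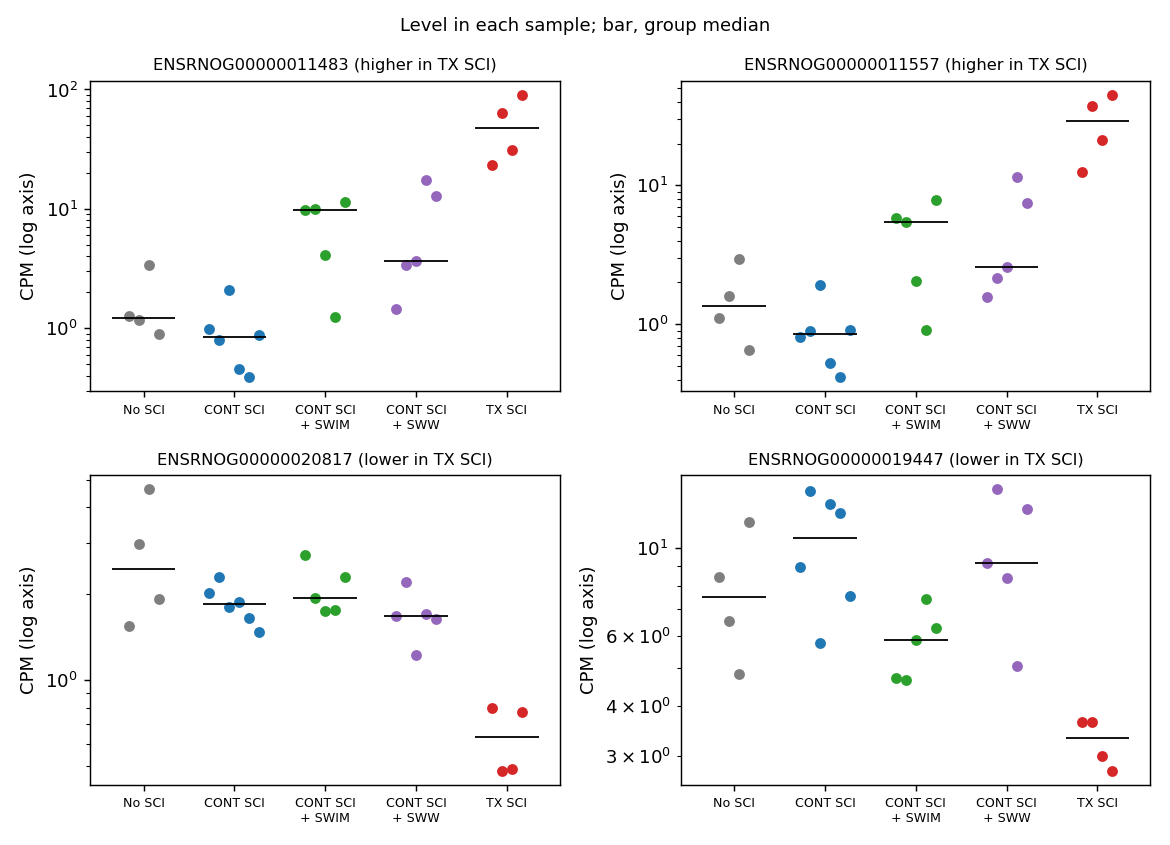
CPM on a log axis in each of the 24 samples for 2 members higher and 2 members lower in TX SCI. Points are samples, grouped by injury and exercise, and bars are group medians. The 4 TX SCI points lie beyond all 20 others in each panel, and in the upper panels most exercised rats lie above the CONT SCI rats.

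The choice of members did not compare the other 4 groups with each other, although it kept all 20 of their samples on one side of TX SCI. For these 20 samples, TX SCI left out, 15179 genes were tested in edgeR, with an adjusted p under 0.05 as the threshold for a call. All 45 members passed the filter on low counts in that fit. The comparisons with CONT SCI share its 6 samples.

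In CONT SCI + SWIM, 13 of the 39 higher members (33.3%) were called higher than in CONT SCI, where 12.6% of all genes tested were. Another 1 of the 39 was called lower, or 2.56%, where 19.6% of all genes were called lower. The median log2 fold change was 0.15 over the 39 and -0.01 over all genes. In CONT SCI + SWW, 15 of the 39 were called higher (38.5%, against 18.7% of all genes) and 1 lower (2.56%, against 24.3%). Here the median was 0.26, and 0.00287 over all genes. Of the 39, however, 9 averaged under 1 CPM in the 20 rats and reached a mean of 1 CPM only through TX SCI. With that minimum taken over the 20 rats, a limit chosen after seeing the data, 6 of 30 were called higher with swimming (20%, against 13.3% of all genes) and 1 lower (3.33%, against 20.9%). With walking 8 of 30 were called higher (26.7%, against 19.8% of all genes) and 1 lower (3.33%, against 25.8%). The medians fell to 0.08 with swimming and 0.15 with walking. The shares called higher thus lay closer to those of all genes, and they describe a list that was itself picked from these data.

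For rank 1 the log2 fold change was 2.90 (SE 0.62, edgeR adjusted p = 0.00110) with swimming and 2.96 (SE 0.61, edgeR adjusted p = 0.000533) with walking. For rank 2 the changes were 2.22 (SE 0.57, edgeR adjusted p = 0.00496) and 2.39 (SE 0.56, edgeR adjusted p = 0.00172), and 4 of 5 rats in each exercise group exceeded every CONT SCI rat. Neither member was called between CONT SCI and No SCI, where the log2 fold changes were -0.82 (SE 0.71, edgeR adjusted p = 0.591) and -0.77 (SE 0.64, edgeR adjusted p = 0.567). These values moved to -0.24 and -0.28 without No SCI replicate 3, and to -1.23 and -1.13 without CONT SCI replicate 3, and were not called in either case.

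**Figure D2:**
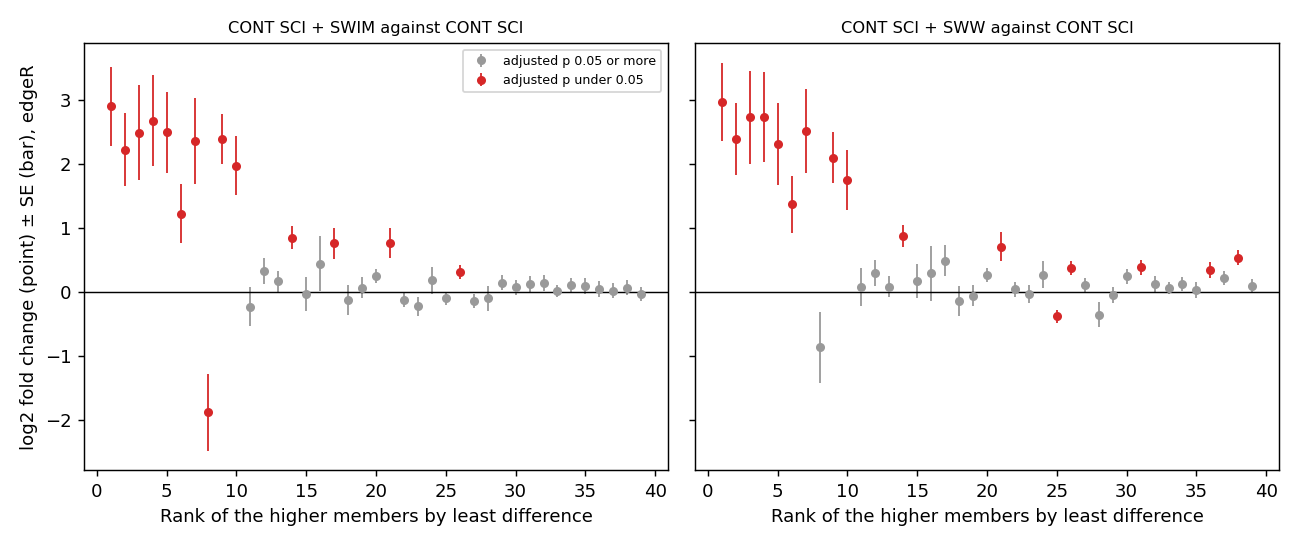
Log2 fold change from edgeR, with its SE as bars, of the 39 higher members in each exercise group against CONT SCI, by rank of their distance from the nearest group. The highest values, 2.90 with swimming and 2.96 with walking, belong to rank 1, and the lowest, -1.88 and -0.87, to rank 8.

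The working name of the set, genes set apart only by complete transection, does not describe ranks 1 and 2, which were also higher with exercise. Of the 45 members, 20 (44.4%) were called in at least 1 of the 4 comparisons without TX SCI, against 50.6% of all genes tested, so the share of members is no higher than that of all genes. With the minimum of 1 CPM over the 20 rats, it was 13 of 36 (36.1%, against 53.4%). The other 4 group means lay within 0.3 of each other on the log2 scale in 16 members (35.6%), against 57.7% of all genes with a mean of 1 CPM, and in 15 of 36 (41.7%, against 57.8%) with that minimum. In 26 of the 39 higher members (66.7%) both exercise means exceeded both unexercised means, as they did in 36.2% of all genes with a mean of 1 CPM, and with that minimum in 18 of 30 (60.0%, against 36.2%). The nearest group to TX SCI was CONT SCI + SWW in 17 higher members, CONT SCI + SWIM in 14, No SCI in 5 and CONT SCI in 3. The choice used these distances, so the tally describes the list only and is no result on exercise. Its share over all genes, and the tally with that minimum, were not taken.

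Between the unexercised groups, the share of higher members called was no higher than that of all genes. CONT SCI was higher than No SCI in 2 of the 39 (5.13%, against 8.01% of all genes) and lower in 0 (against 3.57% of all genes). At an unadjusted p under 0.05, edgeR gave 4 higher and 0 lower, against 12.8% and 8.85% of all genes, and DESeq2 called 2 and 0, against 8.3% and 4.78%. The members called were ranks 8 and 25. Rank 8 measured 0.343 to 1.21 CPM in No SCI and 1.31 to 8.99 in CONT SCI (median 4.59), with no overlap. It measured 1.6, 1.37, 0.646, 0.741 and 2.51 CPM in the swimming rats and 0.781, 0.60, 1.14, 9.37 and 2.81 in the walking rats. In TX SCI it reached 33.7, 12.8, 15.8 and 23.3 CPM. The log2 fold change was 2.63 in CONT SCI against No SCI (SE 0.68, edgeR adjusted p = 0.0128) and -1.88 in CONT SCI + SWIM against CONT SCI (SE 0.60, edgeR adjusted p = 0.0210). With walking it was -0.87 (SE 0.55, edgeR adjusted p = 0.219). The rise was no longer called without No SCI replicate 2 (adjusted p = 0.0561) or replicate 4 (adjusted p = 0.0535), nor the fall with swimming without CONT SCI + SWIM replicate 3 (adjusted p = 0.0521) or replicate 4 (adjusted p = 0.0544).

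Rank 25 measured 7.60 to 9.28 CPM in No SCI and 8.97 to 13.7 in CONT SCI, where 5 of 6 rats exceeded every No SCI rat. The 4 TX SCI rats measured 25.6, 18.6, 17.0 and 14.9 CPM. Its log2 fold change was 0.43 with contusion (SE 0.11, edgeR adjusted p = 0.00858) and -0.38 with walking against CONT SCI (SE 0.10, edgeR adjusted p = 0.00425). With swimming against CONT SCI it was -0.10 and not called (SE 0.10, edgeR adjusted p = 0.490). Swimming against walking was not called either, at 0.28 (SE 0.11, edgeR adjusted p = 0.156). Without No SCI replicate 2 the rise was not called (adjusted p = 0.0717).

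The exercise groups differed from each other in 1 of the 39 higher members. Rank 38 measured 19.6, 21.1, 14.3, 23.7 and 20.5 CPM with swimming and 23.8, 29.1, 28.3, 31.6 and 25.4 with walking. The TX SCI rats measured 51.8, 39.2, 45.2 and 34.4 CPM. All walking rats exceeded all swimming rats, the closest pair by a narrow margin. The log2 fold change of swimming against walking was -0.47 (SE 0.12, edgeR adjusted p = 0.0416), and 0 members were called in the opposite direction. In this comparison 2.67% of all genes were called higher with swimming and 0.323% lower. At an unadjusted p under 0.05, edgeR gave 1 higher member higher and 3 lower, against 10.6% and 8.3% of all genes. DESeq2 called 0 and 1, against 4.85% and 1.19%, with no adjusted p for 9 of the 39. The call was lost in 7 of the 10 fits that left out a rat.

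Some higher members were abundant. Rank 13 measured 173, 167, 155 and 192 CPM in TX SCI and 33.7 to 73.1 CPM in all other rats, with no call in any of the 4 comparisons. The most abundant member, rank 36, measured 5453, 4140, 4413 and 3839 CPM in TX SCI. It ran from 2223 to 2564 in No SCI, from 1623 to 2720 in CONT SCI, from 1778 to 2964 with swimming and from 2351 to 3321 with walking. Its TX SCI values lay above all others, and the other groups overlapped. With walking it was 0.34 higher than in CONT SCI on the log2 scale (SE 0.12, edgeR adjusted p = 0.0317). With swimming the value was 0.05 and not called (SE 0.12, edgeR adjusted p = 0.801). Swimming against walking was not called either, at -0.29 (SE 0.13, edgeR adjusted p = 0.230).

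Many members were rare. A mean under 5 CPM was found in 18 of the 39 higher members (46.2%), against 17.8% of all genes with a mean of 1 CPM. Of the 39, however, 9 reached a mean of 1 CPM only through TX SCI. The share partly restates the choice, was not taken without these 9, and is given as a value only. Counts of 0 occurred in 2 values, rank 7 in CONT SCI replicate 4 and rank 10 in CONT SCI replicate 5. A count of 0 allows up to 3 counts, or 0.0985 and 0.0785 CPM in those samples, for counting error only. Rank 11 rested on a single library. TX SCI replicate 2 measured 44.7 CPM, while the other TX SCI rats measured 0.998, 0.930 and 1.29 and the 20 other rats 0.124 to 0.798.

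**Figure D3:**
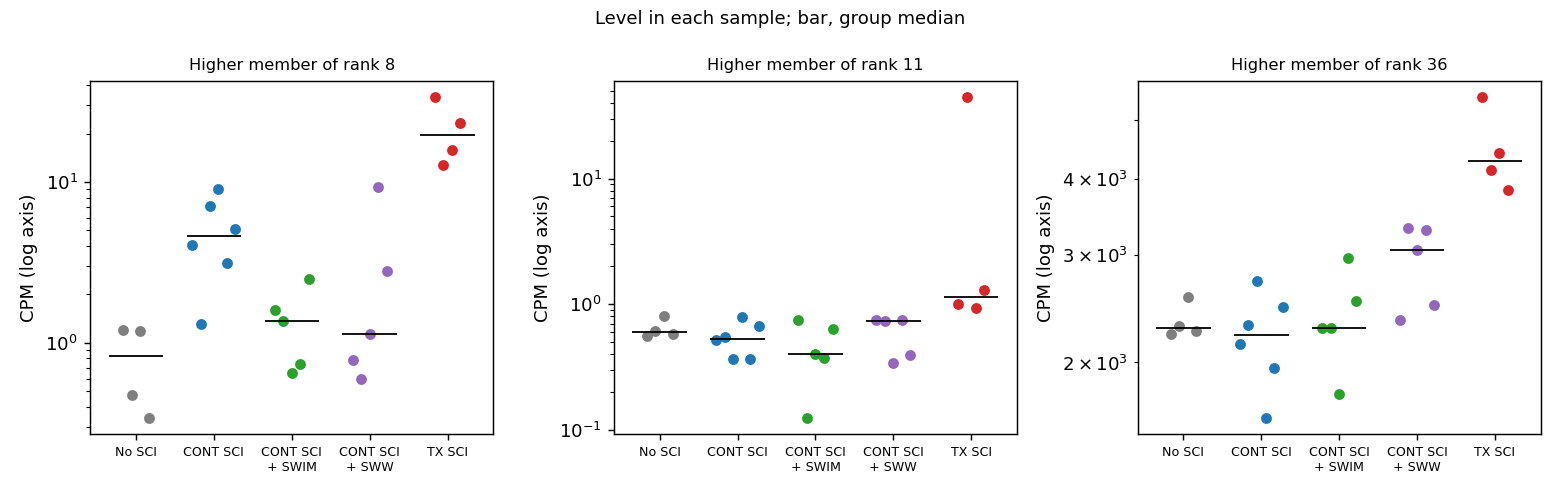
CPM on a log axis in each of the 24 samples for the higher members of rank 8, 11 and 36. Points are samples and bars are group medians. Rank 8 was raised in CONT SCI as well, rank 11 was high in 1 TX SCI rat, and rank 36 reached 5453 CPM in TX SCI.

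Summed over the 39 higher members, which rank 36 dominates, the TX SCI rats held 8264, 6853, 7165 and 6543 CPM and the other rats 2949 to 5150 CPM. The 6 lower members together held 18.7, 18.4, 19.2 and 14.98 CPM in TX SCI and 27.2 to 47.9 CPM elsewhere.

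The distance of the lower members from the nearest group mean, which the choice used, ran from 0.61 to 0.94 on the log2 scale (median 0.67), and that of the higher members from 0.60 to 2.85 (median 0.82). For ENSRNOG00000020817, lower rank 1, TX SCI values were 0.798, 0.482, 0.491 and 0.771 CPM. The No SCI rats measured 1.54, 2.97, 4.64 and 1.92 CPM and the CONT SCI rats 1.47 to 2.30 (median 1.84). It measured 2.74, 1.93, 1.74, 1.75 and 2.28 CPM with swimming and 1.67, 2.20, 1.22, 1.69 and 1.63 with walking. The other 4 groups overlapped, and none of the 4 comparisons called it over all 20 rats. In CONT SCI against No SCI its log2 fold change was -0.55 (SE 0.23, edgeR adjusted p = 0.142). It moved to -0.77 and was called without No SCI replicate 1 (edgeR adjusted p = 0.0281), and moved to -0.20 without No SCI replicate 3 (edgeR adjusted p = 0.613). Its TX SCI counts were only 14 to 21.

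ENSRNOG00000019447, lower rank 2, measured 3.64, 3.65, 3.00 and 2.75 CPM in TX SCI. The No SCI rats measured 8.44, 6.55, 4.82 and 11.6 CPM and the CONT SCI rats 5.77 to 13.9 (median 10.6). It measured 4.70, 4.66, 5.87, 7.44 and 6.29 CPM with swimming and 9.16, 14.0, 8.39, 5.03 and 12.5 with walking. The swimming rats lay low, with 2 of 5 below every CONT SCI rat. With swimming its log2 fold change against CONT SCI was -0.85 (SE 0.26, edgeR adjusted p = 0.0170), while with walking the value was -0.10 (SE 0.25, edgeR adjusted p = 0.789). The difference between swimming and walking was -0.76 (SE 0.28, edgeR adjusted p = 0.143).

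Lower rank 6 was lower than in CONT SCI in both exercise groups. It measured 0.399, 0.654, 0.697 and 0.698 CPM in TX SCI, 1.17, 1.18, 0.945, 0.909 and 1.87 with swimming and 1.14, 1.4, 1.52, 1.59 and 1.07 with walking. The CONT SCI rats measured 2.20 to 4.46 CPM (median 2.93) and the No SCI rats 4.09, 2.6, 3.69 and 3.15. All 10 exercised rats lay below all unexercised rats and above all TX SCI rats. The log2 fold changes against CONT SCI were -1.37 (SE 0.21, edgeR adjusted p = 2.93e-05) with swimming and -1.25 (SE 0.20, edgeR adjusted p = 3.55e-05) with walking. Of the 6 lower members, 2 were called lower with swimming (33.3%, against 19.6% of all genes) and 1 with walking (16.7%, against 24.3%), shares that rest on 6 genes only. Of the 6, 0 were called higher with either, also at an unadjusted p under 0.05 in edgeR (17.4% of all genes with swimming and 23% with walking) and by DESeq2 (14.8% and 20.8%). CONT SCI against No SCI called 0 of the 6, where edgeR called 8.01% of all genes higher and 3.57% lower, and DESeq2 also called 0 (8.3% and 4.78% of all genes). At an unadjusted p under 0.05, edgeR gave 0 higher and 1 lower there, against 12.8% and 8.85% of all genes. Swimming against walking also called 0, where edgeR called 2.67% of all genes higher and 0.323% lower, and DESeq2 called 0 (4.85% and 1.19%). At an unadjusted p under 0.05, edgeR gave 0 higher and 1 lower, against 10.6% and 8.3% of all genes.

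Over the 20 rats without transection, after removal of group means, the median Pearson r was 0.30 over 741 pairs of higher members and 0.02 over pairs of all genes with a mean of 1 CPM. Without the 9 higher members that averaged under 1 CPM in the 20 rats, it was 0.31 over 435 pairs of higher members and 0.02 over pairs of all genes with that minimum. The 15 pairs of lower members had a median r of -0.21, and the 234 pairs of a higher and a lower member -0.04. These correlations describe genes measured in the same libraries, which share depth. With that minimum over the 20 rats, 8 genes had an r of at least 0.8 with rank 1, itself included, and 3 of these were members, ranks 1, 2 and 9. The other 5 had their highest group mean in TX SCI, as did 32.3% of all genes with that minimum. In 4 of them it was at least 0.6 above every other group, as in 0.439% of all genes. Rank 1 was itself picked by this distance of TX SCI, so these counts are given as values only. Without the minimum over the 20 rats the genes with an r of at least 0.8 numbered 14, with 8 members. Of these 8, 5 averaged under 1 CPM in the 20 rats.

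The summed level of these 3 members was 46.8, 130, 62.6 and 159 CPM in TX SCI replicates 1 to 4. It was 22.7, 21.3, 10.6, 3.50 and 25.7 CPM with swimming, 5.26, 8.10, 10.3, 36.7 and 24.4 with walking, 2.81 to 9.51 in No SCI and 1.44 to 5.16 in CONT SCI. The exercised rats spread from the level of the unexercised rats to near that of the lowest TX SCI rat. An r of at least 0.8 with the most abundant member, itself included, was found in 52 genes, of which 48 were not members. Of these 48, TX SCI had the highest group mean in 25, and in 0 was it at least 0.6 above every other group. Between the 4 members among the 52 genes and the 3 members with rank 1 the median r was 0.19. Both groups were picked after the values were seen.

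The limits of the set were not sharp. Without the requirement of 0.6, TX SCI lay above all other rats in 243 genes and below them in 109. The last higher members inside had distances of 0.601 and 0.607 and the first outside 0.592 and 0.592, and for lower members the values were 0.609 and 0.624 inside and 0.595 and 0.559 outside. A further 50 genes passed 0.6 against every group mean but overlapped, 34 of them higher in TX SCI. Without TX SCI replicate 1, the least deep library of that group, the same requirements gave 74 genes, 49 higher and 25 lower, and 39 of the 45 were among them. With another group in the place of TX SCI the requirements gave 5 genes for No SCI (4 higher), 9 for CONT SCI (3 higher) and 0 for each exercise group, whose numbers of rats differ from TX SCI.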

How the data were processed

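Whole dorsal root ganglia of 24 rats were sequenced after poly-A selection with a stranded kit. The authors aligned reads with STAR to Rn6 and counted them per Ensembl gene by HTSeq (0.10.0 in the submitters' notes) on the reverse strand, mitochondrial genes left out, and the deposited values are whole counts without normalization. Reads of near-identical genes can be lost or misassigned by such counting. All columns were matched to samples by group and replicate. CPM, the pseudocount of 0.5 and the limits of the set were used as given. Tests used edgeR 4.0.16 (TMM, filterByExpr with minimum count 10 and minimum total 15, glmQLFTest, Benjamini-Hochberg over all genes) in R 4.3.3, with DESeq2 1.42.0 as an alternative, and Python 3.11.15 with numpy 2.4.6. The SE is the log2 fold change over the square root of F. The rule and tests were checked on simulated counts. For the rule, changes were planted only in more abundant genes, at a fixed spread between rats. That check does not cover the rare members or those that varied widely within a group. Members and comparisons were chosen with earlier results of these data known. Without gene names, the 2 identifiers with the largest distance from the nearest group were printed in each direction, and other members, by rank, were chosen after their values were seen. The gene and marker lists prepared by symbol could not be matched and were not used here.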

Additional observations from a re-analysis of the deposited data

Results flagged for a closer look

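In 4 of 70 sets of values (11 members, the summed levels and the total counts, each in 5 groups), a rat stood apart from the rest of its group by Dixon's ratio. Chance gives about 1 in 20 for sets not picked by their values, which does not hold here. Higher rank 11 was included for the largest spread in TX SCI, and some members because they were called. The TX SCI values were also used by the choice of members, so the 4 are given as values only. In log2(CPM + 0.5), higher rank 11 was 5.50 in TX SCI replicate 2, where the next rat was at 0.84. Lower rank 6 was -0.15 in TX SCI replicate 1, with the next rat at 0.21. Lower rank 4 was 3.39 in CONT SCI + SWW replicate 4, with the next rat at 3.93. The summed level of the higher members was 4298 CPM in No SCI replicate 3 and 3549 CPM in the next rat. One member, higher rank 38, was called between the exercise groups, with a log2 fold change of -0.47 of swimming against walking (edgeR adjusted p = 0.0416). That call was lost in 8 of 15 alternative fits.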

How the results depend on the processing

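The set of 45 held 40 genes with TMM scaling and 40 with DESeq2 size factors (37 and 38 shared), 69 without a minimum CPM, and 68, 22 and 17 at a least difference of 0.5, 0.8 and 1. Leaving out each rat gave 39 to 74. Members called numbered 0 to 3 for CONT SCI against No SCI when a rat was left out, and 0 to 1 for swimming against walking. All genes called ranged from 1132 to 1716 in the former, with 1758 over all rats and 1132 genes and 0 members without No SCI replicate 2. In the latter they ranged from 123 to 811, with 454 over all rats, and were 811 by DESeq2. The other comparisons kept their total counts within 1.5 times under every planned choice. By direction, walking against CONT SCI called 12 members higher and 4 lower without CONT SCI + SWW replicate 4, against 15 and 2 over all rats. With the minimum of 1 CPM over the 20 rats, chosen after seeing the data, 36 of the 45 stayed. The members called went from 16 of 45 to 9 of 36 with swimming, and all genes called from 4880 of 15179 to 4606 of 13460. With walking the members called went from 17 of 45 to 10 of 36, and all genes called from 6522 of 15179 to 6139 of 13460. Replicate numbers belong to different rats, and the mean correlation of deviations of same-numbered rats ran from -0.17 to 0.05 over pairs of groups. With the replicate block, swimming against walking called 251 genes and 0 members, rank 1 had a log2 fold change of 0.0192 there, and the other comparisons called 1386, 4301 and 5924 genes, with 2, 14 and 15 members among them. Uncalled values changed sign in some fits: without a rat, swimming against walking ran from -0.34 to 0.45 for ENSRNOG00000011483 and from -0.51 to 0.36 for ENSRNOG00000011557, and walking against CONT SCI from -0.265 to 0.061 for ENSRNOG00000019447. The causes were not tested. Rare members rest on few counts.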
